A study of Rattus norvegicus with 4 samples.

Results

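Nicotinic acetylcholine receptor subunits and Lynx1 were followed in cells captured from the rat vestibular ganglion. The neurons of this ganglion carry signals from the hair cells of the balance organs to the brainstem. The group holds 10 listed genes: the alpha subunit genes Chrna3, Chrna4, Chrna5, Chrna7, Chrna9 and Chrna10, the beta subunit genes Chrnb2, Chrnb3 and Chrnb4, and Lynx1. They were chosen by gene symbol, as every probe whose annotation names 1 gene and that gene is on the list. Chrna7 had no probe, the other 9 genes had 13 probes, and 11 of these probes, again from 9 genes, could be read, out of 11039 genes read on the whole array.

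The series compared cells labelled calretinin-positive with cells labelled calretinin-negative. Cells stained for calretinin, a calcium-binding protein, were collected from rat vestibular ganglia by laser capture, and their total RNA was labelled with Cy5 and hybridised to 1-colour arrays. The design text describes the positive cells as calyx afferents, whose endings enclose a hair cell, and the negative cells as dimorphic and bouton afferents, and says that the captured material was pooled. No strain, age, treatment or number of animals is given in the sources used here. Each of the 2 groups had 2 arrays, assigned here by title. The sample descriptions are no help, as the negative samples are described in them as positive cells too, so the 2 groups are named by their label only: libraries labelled positive, and those labelled negative.

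Neuronal nicotinic receptors are cation channels opened by acetylcholine and built from alpha and beta subunits around a central pore. The alpha3 subunit, usually paired with beta4 or beta2, forms the main receptor of autonomic ganglia; alpha4 with beta2 is the most common heteromeric receptor of the brain; alpha5 and beta3 join other subunits as accessory parts; alpha7 forms channels of its own. In the inner ear, efferent neurons of the brainstem release acetylcholine onto hair cells, which carry receptors of alpha9 and alpha10, and onto the afferent endings. Lynx1 is a membrane-anchored protein of the Ly6 family, related in fold to snake toxins, that binds nicotinic receptors and dampens their response.

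The genes Chrna5, Chrna3 and Chrnb4 are consecutive protein-coding genes on rat chromosome 8 in the GRCr8 annotation of RefSeq, and Chrna3 and Chrna5 were the subunit genes that were higher in the libraries labelled positive. Their promoters are shown here for that reason, with that of Chrnb2, whose change did not pass the test, beside them. Each window runs from 250 bases before to 50 bases after the annotated start, is written 5′ to 3′ on the strand of the gene, and comes from RefSeq (GRCr8). Capitals mark matches to the GC box GGGCGG, a sequence bound by factors of the Sp family, on either strand (CCGCCC on the other).
Chrna5, chr8:64265629-64265928, plus strand: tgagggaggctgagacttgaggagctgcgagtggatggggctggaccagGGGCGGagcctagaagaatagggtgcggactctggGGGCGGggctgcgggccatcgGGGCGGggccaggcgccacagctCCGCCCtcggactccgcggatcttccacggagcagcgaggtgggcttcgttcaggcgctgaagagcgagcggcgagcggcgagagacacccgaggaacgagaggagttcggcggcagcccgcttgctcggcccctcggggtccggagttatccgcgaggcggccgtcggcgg
Chrna3, chr8:64311202-64311501, minus strand: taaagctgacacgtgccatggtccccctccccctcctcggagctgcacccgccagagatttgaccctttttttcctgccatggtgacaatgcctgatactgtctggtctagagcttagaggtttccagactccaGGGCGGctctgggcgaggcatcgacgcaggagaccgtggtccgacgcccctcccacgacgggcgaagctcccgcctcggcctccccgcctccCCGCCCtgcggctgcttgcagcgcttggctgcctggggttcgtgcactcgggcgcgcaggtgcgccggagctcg
Chrnb4, chr8:64333060-64333359, minus strand: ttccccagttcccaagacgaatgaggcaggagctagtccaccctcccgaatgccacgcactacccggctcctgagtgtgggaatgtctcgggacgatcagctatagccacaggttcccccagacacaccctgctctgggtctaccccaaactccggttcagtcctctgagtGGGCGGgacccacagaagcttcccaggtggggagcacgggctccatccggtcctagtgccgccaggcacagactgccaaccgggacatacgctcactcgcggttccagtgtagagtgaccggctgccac
Chrnb2, chr2:177487257-177487556, minus strand: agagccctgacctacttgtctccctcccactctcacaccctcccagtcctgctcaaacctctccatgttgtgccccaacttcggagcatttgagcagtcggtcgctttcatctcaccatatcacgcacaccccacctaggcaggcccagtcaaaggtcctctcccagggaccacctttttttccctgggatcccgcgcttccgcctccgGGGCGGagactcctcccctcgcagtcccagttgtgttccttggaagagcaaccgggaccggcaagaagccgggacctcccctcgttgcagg

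The Chrna5 window held 4 GC boxes, that of Chrna3 held 2, and those of Chrnb4 and Chrnb2 held 1 each. Among the other members with a window, that of Chrna4, whose probe was dim, held 3. The window of Chrna7, which had no probe, held 2, and those of Chrna9 and Chrna10 held 0. Of 33469 rat promoter windows of the same length, 33.1% held at least 1, 17% held 2 or more and 4.64% held 4 or more. GC content was 71.3% for Chrna5, 66.7% for Chrna3, 62.3% for Chrnb4 and 61.0% for Chrnb2. In the other windows it was 74.7% for Chrna4, 68.3% for Chrna7, 55.3% for Chrna9 and 49.3% for Chrna10. The E box CANNTG is a site of basic helix-loop-helix factors that reads the same on both strands. It occurred 2 times in the Chrna3 window, 1 time in that of Chrnb4, 2 times in that of Chrnb2 and 0 times in that of Chrna5. In the other windows it occurred 2 times for Chrna7, 3 times for Chrna9 and 0 times for Chrna4 and Chrna10. Of all windows 72.1% held at least 1 and 38.6% held 2 or more. The E box overlapped no GC box in the windows of these genes. Promoter windows were found for 8 of the 10 genes. These matches describe the letters of the windows and were not tested against the array values.

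The array carried 35126 probes, and precision is limited by there being 4 arrays in all. Names were taken at their own table row for the early probe IDs (the early part) and 5 table rows later for the late ones (the late part). Pairs of probes that carry the same accession, control probes aside, bear on this reading. Their log2 changes correlated at r = 0.371 within the early part (97 pairs), and between the early and the late part at r = 0.463 with the late value taken 5 rows later (132 pairs) but at r = -0.157 with the value at its own row (122 pairs). Here a point is a pair of probes, not a replicate. Levels of such pairs agreed only loosely even within the early part (r = 0.411 across 189 pairs), so a gene with 1 probe rests on weak ground. Calb2, which encodes the calretinin protein that was stained to choose the cells, checks the labels and had 291 and 328 in the libraries labelled positive and 138 and 129 in those labelled negative. Its direction goes with the titles, and it was bright in both groups. Its probe is a late one, so this check rests on the same reading: at its own row it had 6.10 and 5.92 against 13.1 and 12.4, the opposite direction.

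Of the 9 genes read, 4 had a probe bright enough to be tested, with a mean log2 level at or above the 40th percentile of all probes, an intensity of 0.456. Among these 4 genes, Chrna5, Chrna3 and Lynx1 were higher in the libraries labelled positive and Chrnb2 did not pass the test, at an adjusted p of 0.05 (limma, Benjamini-Hochberg over all 21070 tested probes). With quantile or cyclic loess normalization between arrays Lynx1 lost its call and its sign turned, while Chrna3 and Chrna5 stayed higher. Over the whole array 64.2% of tested probes were called, 40.6% higher and 23.6% lower, and the groups did not overlap in 81.6% of them. A call or a gap between groups is thus common on these arrays and 3 of 4 is no result about these genes as a group. Calls of at least 2-fold were rarer, with 8.28% of tested probes higher and 7.07% lower by that much, and Chrna5 and Chrna3 were among the higher ones. The median log2 change of the 4 genes was 0.74, against 0.11 over all tested probes. With 4 genes this median is only the midpoint of Lynx1 (0.27) and Chrna3 (1.20). It too is no result about the genes as a group.

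**Figure D1:**
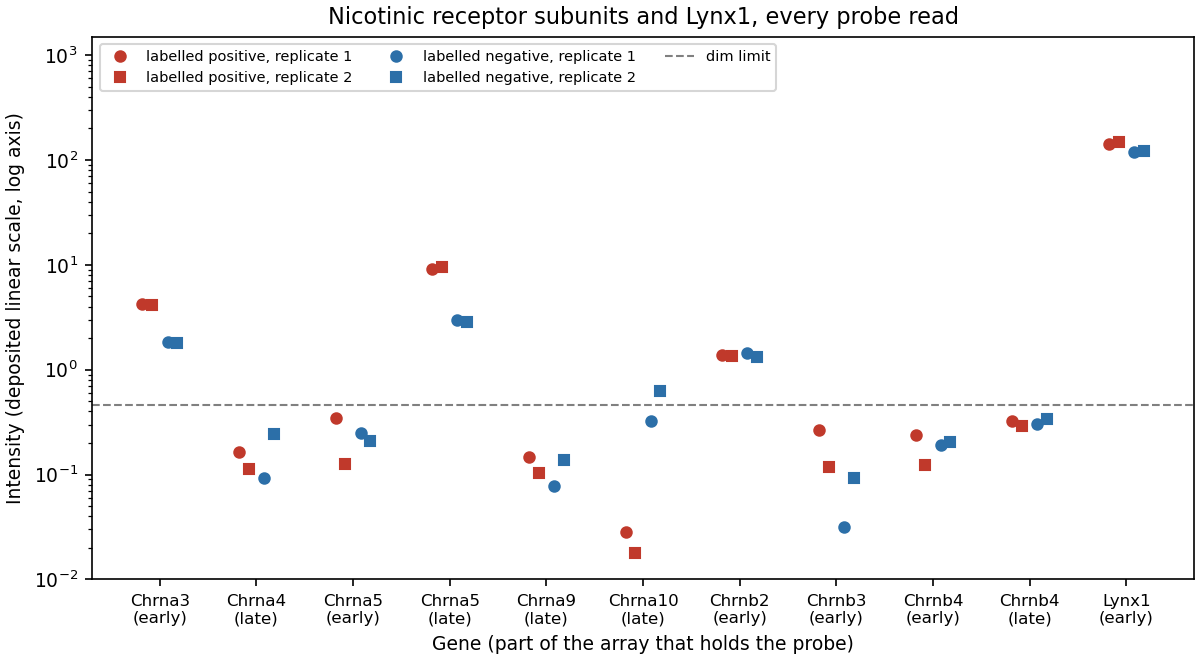
Intensity of every probe read for the nicotinic subunit genes and Lynx1 on each of the 4 arrays, on a log axis, with early or late part of the array under each name and the dim limit of 0.456 as a dashed line. Chrna3, the late Chrna5 probe, Chrnb2 and Lynx1 lie above the limit on all 4 arrays, and of the other probes only that of Chrna10 crosses it, on 1 array labelled negative.

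Chrna3 encodes the alpha3 subunit of ganglionic receptors. Its probe, in the early part of the array, had intensities of 4.25 and 4.17 in the libraries labelled positive and 1.85 and 1.81 in those labelled negative. Both positive arrays lay above both negative ones, and the spread within each pair was small beside the gap. The means were 4.21 ± 0.0569 (SD, n = 2) and 1.83 ± 0.0268, a 2.30-fold difference (log2 change 1.20 ± 0.08, SE; adjusted p = 1.05e-06, limma, Benjamini-Hochberg; higher in 2 of 2 arrays). Its rank among all probes of the array showed the same shift without use of the scale, from the percentiles 59.1 and 59.1 on the negative arrays to 70.3 and 70.1 on the positive ones.

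Chrna5 encodes the accessory alpha5 subunit, which assembles with alpha3 and beta subunits rather than forming channels of its own. The probe in the late part had 9.22 and 9.45 in the libraries labelled positive and 2.96 and 2.88 in those labelled negative. The groups did not overlap, and the difference was 3.20-fold (log2 change 1.68 ± 0.07, SE; adjusted p = 7.06e-08, limma, Benjamini-Hochberg; means 9.33 ± 0.160 and 2.92 ± 0.0552, SD, n = 2). Among the 4 members tested, each by its brightest probe, this was the largest called change. The early probe of Chrna5, designed on another transcript record, had 0.347 and 0.126 in the libraries labelled positive and 0.252 and 0.208 in those labelled negative. It was below the dim limit on all 4 arrays, and its groups overlapped. The 2 probes of the gene therefore disagree in level, and the change rests on the late probe and on its reading 5 rows later; read at its own row, that probe had 0.0846 to 0.202 and 0.0813 to 0.294 and was too dim to test. With the mean of both probes in place of the brighter one the log2 change of Chrna5 was 0.77 (adjusted p = 0.0276).

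Chrnb2 encodes the beta2 subunit, a partner of alpha4 and alpha3. Its probe had 1.39 and 1.36 in the libraries labelled positive and 1.43 and 1.31 in those labelled negative, so that the positive values lay inside the range of the negative ones. The log2 change was 0.00317, with a 95% interval from -0.25 to 0.25 (adjusted p = 0.983, limma, Benjamini-Hochberg). Changes of more than about that size in either direction lie outside the interval, while smaller ones cannot be told from the spread of the arrays.

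Lynx1, the nicotinic receptor modulator, had 142.9 and 149.0 in the libraries labelled positive and 119.0 and 122.8 in those labelled negative. The groups did not overlap, and the gap was small. The difference was 1.21-fold (log2 change 0.27 ± 0.07, SE; adjusted p = 0.00713, limma, Benjamini-Hochberg; means 145.9 ± 4.27 and 120.9 ± 2.64, SD, n = 2). It became -0.01 with quantile and -0.01 with cyclic loess normalization. Its rank did not follow the intensity: the probe stood at percentiles of 98.8 and 98.9 on the positive arrays and again of 98.8 and 98.9 on the negative ones. Bright probes as a whole were higher in the libraries labelled positive, where the 90th percentile was 29.9 and 30.1, against 25.7 and 25.6.

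**Figure D2:**
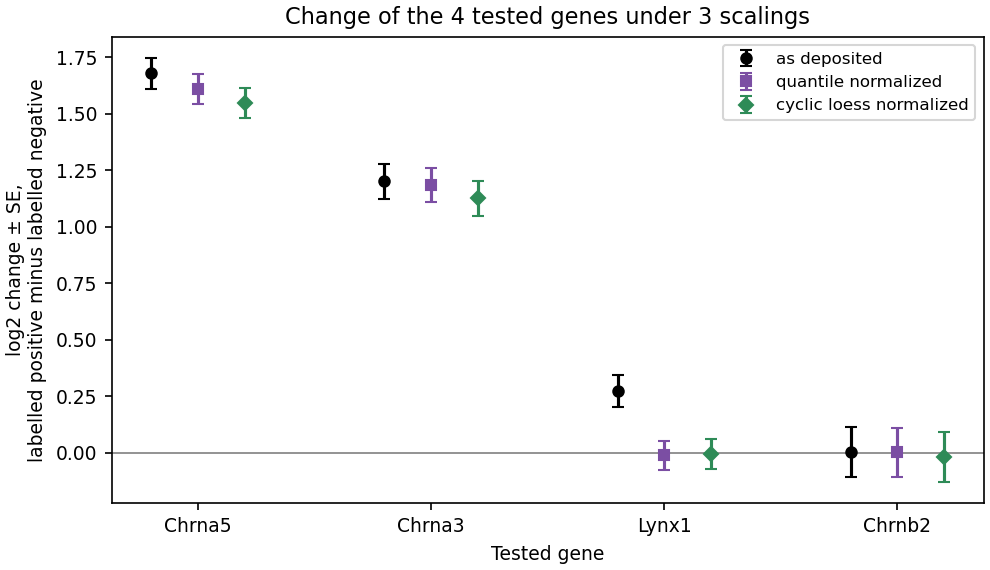
Log2 change (labelled positive minus labelled negative) with its SE for the 4 tested genes, on the values as deposited and after quantile or cyclic loess normalization. Chrna5 stays between 1.55 and 1.68 and Chrna3 between 1.13 and 1.20, while Lynx1 moves from 0.27 to just below 0 and Chrnb2 stays near 0.

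Ratios of 2 genes on the same array do not depend on a single scale factor per array, though normalizations that act differently on bright and dim probes can move them. The log2 ratio of Chrna3 to Chrnb2 was 1.61 and 1.62 on the positive arrays and 0.37 and 0.46 on the negative ones, a difference of 1.20. That of Chrna5 to Chrnb2 was 2.73 and 2.80 against 1.04 and 1.13, a difference of 1.68. Both ratios were higher on each positive array than on each negative one. As the log2 change of Chrnb2 was 0.00317, these differences restate the changes of Chrna3 and Chrna5 from the same probes. With the brighter Chrna5 probe, Chrna5 changed more than Chrna3, the log2 ratio of Chrna3 to Chrna5 being -1.12 and -1.18 against -0.68 and -0.67; with the mean of the probes of a gene the order turned (0.77 for Chrna5 and 1.20 for Chrna3). The ratio of Lynx1 to Chrnb2 differed least, 6.68 and 6.78 against 6.37 and 6.55, with a gap of 0.13 between the groups, and after quantile or cyclic loess normalization the log2 changes of both genes lay near 0 (-0.01 and -0.01 for Lynx1, 0.00223 and -0.02 for Chrnb2). For each of the 6 pairs of tested genes the exact permutation test gave p = 0.333 (two-sided; 0.333 after Benjamini-Hochberg), the smallest p that 2 arrays against 2 allow, so these differences are measured but cannot reach significance in that test.

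**Figure D3:**
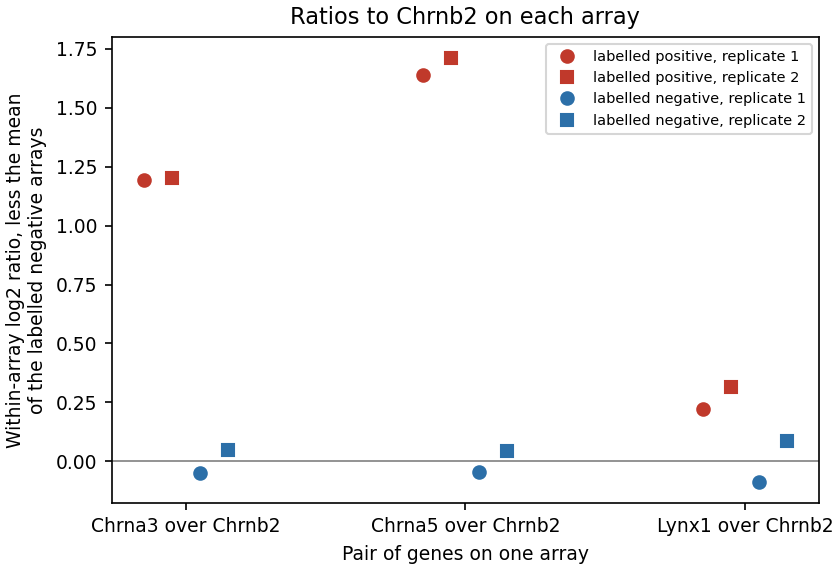
Log2 ratio of Chrna3, Chrna5 and Lynx1 to Chrnb2 on each array, less the mean of that ratio on the labelled negative arrays. The positive arrays sit well above the negative ones for Chrna3 and Chrna5 and by 0.13 for Lynx1, on the values as deposited.

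The other 5 genes read, Chrna4, Chrna9, Chrna10, Chrnb3 and Chrnb4, lay below the dim limit in both groups and are given by their levels only. Chrna4, the alpha subunit of the main brain receptor, had 0.165 and 0.113 in the libraries labelled positive and 0.0933 and 0.246 in those labelled negative. Chrnb4, the usual beta partner of alpha3, was dim with both of its probes: the early one had 0.239 and 0.123 against 0.190 and 0.203, and the late one 0.328 and 0.294 against 0.301 and 0.339. In neither gene did the groups separate. For late probes this rests on the reading 5 rows later. At its own row the late Chrnb4 probe had 51.2 and 59.9 against 61.8 and 67.7 (adjusted p = 0.0504, limma, Benjamini-Hochberg), and that of Chrna4 had 3.08 and 3.08 against 1.73 and 1.76 and would be called higher (log2 change 0.82, adjusted p = 1.86e-05). A dim probe bounds the signal of that probe and does not show that the transcript was missing.

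Chrnb3, an accessory beta subunit, had 0.268 and 0.119 in the libraries labelled positive and 0.0314 and 0.0927 in those labelled negative. These values do not overlap, but they lie where the arrays of a group differ more than 2-fold. Chrna9 and Chrna10 encode the receptor subunits of hair cells. Chrna9 had 0.146 and 0.104 against 0.0784 and 0.137, with overlapping groups. At its own row the Chrna9 probe had 2.50 and 2.45 against 2.90 and 2.89 and would be called lower (log2 change -0.22, adjusted p = 0.0300, limma, Benjamini-Hochberg). Chrna10 had 0.0284 and 0.0178 in the libraries labelled positive and 0.322 and 0.624 in those labelled negative, where 1 array passed the limit of 0.456. The values of Chrna10 on the positive arrays lay just above the floors of these arrays, 0.0172 and 0.0154, to which lower values were raised before log2. With no filter on dim probes Chrna10 was the member called lower in the libraries labelled positive (log2 change -4.32, adjusted p = 0.00391, limma, Benjamini-Hochberg). That change rests on values near the floor and on the reading 5 rows later. At its own row the Chrna10 probe had 0.022 and 0.126 against 0.330 and 0.0759, with overlapping groups, and was too dim to test. Of 3 tested hair cell markers 2 fell and 0 rose (3 fell after cyclic loess), where 23.6% of all tested probes were called lower. Cdh23, a protein of the tip links between stereocilia, was below the limit in the libraries labelled positive (0.148 and 0.139) and had 4.09 and 3.95 in those labelled negative, Ush1c had 3.91 and 4.03 against 5.20 and 5.39, Otof had 4.29 and 4.64 against 5.09 and 4.68 without passing (adjusted p = 0.175), and Myo7a was dim in both groups. The summed intensity of the 4 hair cell markers read was 8.55 to 8.89 in the libraries labelled positive and 14.2 to 14.5 in those labelled negative. The part of hair cell RNA in the values of Chrna10 was not tested.

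The genes whose pattern over the 4 arrays was most like that of each called member were found by the root mean square difference of log2 values, each probe centred on its own mean, among 8171 other genes. For Chrna3 they were Gpkow (0.0120), Adgrl2 (0.0125), which encodes an adhesion receptor of the latrophilin family, and Dnajc30 (0.0146). Adgrl2 had 51.9 and 52.1 in the libraries labelled positive and 22.8 and 22.5 in those labelled negative. For Chrna5 they were Aldh1l2 (0.0219), a mitochondrial folate enzyme, Egfr (0.0236), the epidermal growth factor receptor, and Ibsp (0.0284), a matrix protein of bone, with Egfr at 28.0 and 27.9 against 9.12 and 8.77. For Lynx1 they were Dop1b (0.00561), Maf1 (0.00810), a repressor of RNA polymerase III, and Cox14 (0.00934). A likeness over 4 arrays of 2 groups is common: 48 genes lay within 0.05 of Chrna3, 14 of Chrna5 and 413 of Lynx1.

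Nicotinic subunits outside the list belong mainly to the receptor of muscle, and 4 of 7 such genes were read. Chrnb1, the beta subunit of the muscle receptor, had 2.35 and 2.59 in the libraries labelled positive and 0.676 and 0.605 in those labelled negative (log2 change 1.95 ± 0.12, SE; adjusted p = 1.02e-06, limma, Benjamini-Hochberg). Chrna6, which in the brain occurs with alpha4, beta2 and beta3, had 1.17 and 1.27 against 1.49 and 1.46 (log2 change -0.28, adjusted p = 0.0549); it passed after cyclic loess normalization (adjusted p = 0.0397). Chrnd and Chrng were dim in both groups. Rapsn, the scaffold protein that clusters the muscle receptor, had 6.72 and 7.41 in the libraries labelled positive and 15.6 and 15.5 in those labelled negative, so that it moved against Chrnb1 (log2 change -1.14, or -0.63 with the mean of its probes). Both are read from the late part of the array.

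Over 7 lists of other genes of acetylcholine signalling, 50 of 99 listed genes were tested, and 21 rose and 9 fell in the libraries labelled positive, a share called that lies near that of all probes, 64.2%. After quantile normalization 17 rose and 13 fell, and after cyclic loess 16 rose and 15 fell. Their median log2 change was 0.10, against 0.11 for all tested probes. These lists were written with earlier results of these data known. The counts of each single list below stand beside the shares of all tested probes, 40.6% called higher and 23.6% lower. With so few genes such a count is no result about a list.

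Genes for making and packaging acetylcholine were dim. Chat, the enzyme that makes acetylcholine, had 0.0396 and 0.0224 in the libraries labelled positive and 0.150 and 0.135 in those labelled negative, and Slc18a3 and Slc5a7, its vesicular carrier and the choline carrier of cholinergic endings, were below the limit on all 4 arrays. Of 4 tested genes of synthesis, release and breakdown, the choline transporter-like genes Slc44a1 (12.1 and 10.9 against 30.2 and 33.7) and Slc44a2 (23.5 and 21.8 against 26.4 and 25.5) fell and Acly, which supplies acetyl-CoA, rose (log2 change 0.28), a call that both normalizations ended. With the mean of the probes of a gene Slc44a1 was at -0.95 in place of -1.47, and its early probe alone was not called (log2 change -0.23, adjusted p = 0.292). Slc44a2 was not called with the mean of its probes (-0.60, adjusted p = 0.0847), without positive replicate 2 (adjusted p = 0.168) or without negative replicate 1 (adjusted p = 0.120).

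Of the muscarinic receptor genes, Chrm3, which couples to the Gq class of G proteins, was bright enough to test and had 2.87 and 2.81 in the libraries labelled positive and 2.20 and 2.23 in those labelled negative (log2 change 0.36 ± 0.08, SE; adjusted p = 0.00307, limma, Benjamini-Hochberg). Chrm1, Chrm2 and Chrm4 were dim. Of 9 tested genes of muscarinic coupling and its effectors 6 rose and 1 fell, and the same 6 rose after either normalization. Over all tested probes 40.6% were called higher and 23.6% lower. Gna11, a Gq-class alpha subunit, had 2.84 and 3.10 against 1.10 and 0.986, Rgs4, which shortens G protein signals, 18.9 and 18.3 against 11.3 and 11.8, and Plcb4, a phospholipase C, 62.2 and 61.9 against 41.7 and 39.5. With the mean of their probes the log2 changes of Gna11 and Rgs4 were 2.36 and 1.35, against 1.51 and 0.69 for the brightest probe.

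Of 11 tested genes of nicotinic receptor assembly, trafficking and the Ly6 family, 2 rose and 4 fell; 1 rose and 5 fell after quantile and 1 rose and 4 fell after cyclic loess normalization. Ubxn2a, which acts on the turnover of alpha3 receptors, had 39.7 and 42.0 in the libraries labelled positive and 23.6 and 23.2 in those labelled negative, and Rer1, a retention protein of the early secretory pathway, 2.01 and 2.01 against 4.55 and 4.06. Ly6h, of the Ly6 family like Lynx1, had 0.514 and 0.358 against 1.68 and 1.82 and was called lower, also after either normalization. Its mean log2 level in the libraries labelled positive lay below the dim limit. Ric3, a chaperone of alpha7, was dim. Of 13 tested calcium and kinase partners 7 rose and 1 fell (5 and 2 after quantile, 4 and 2 after cyclic loess). The potassium channel genes Kcnma1 (3.34 and 2.93 against 1.40 and 1.19) and Kcnn1 (1.08 and 1.13 against 0.409 and 0.621) and the calcium pump gene Atp2b1 (51.1 and 47.4 against 34.9 and 37.2) had the smallest p. Kcnma1 had no call with the mean of its probes (log2 change 0.42, adjusted p = 0.145).

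Of 10 tested transcription factors described at nicotinic genes 3 rose and 1 fell (3 and 3 after quantile, 3 and 5 after cyclic loess). Sox10, which acts on the Chrna3 and Chrnb4 promoters in cultured cells and marks glia, had 1.13 and 1.46 in the libraries labelled positive and 6.09 and 6.12 in those labelled negative. Egr1 (16.6 and 17.1 against 10.3 and 9.21) and Rest (9.14 and 8.81 against 6.24 and 6.50) rose, and neither passed with the mean of its probes (adjusted p = 0.0574 and 0.922). Sp1, the GC box factor, had 9.65 and 9.74 against 10.9 and 10.8 (adjusted p = 0.0526); it fell after either normalization.

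**Figure D4:**
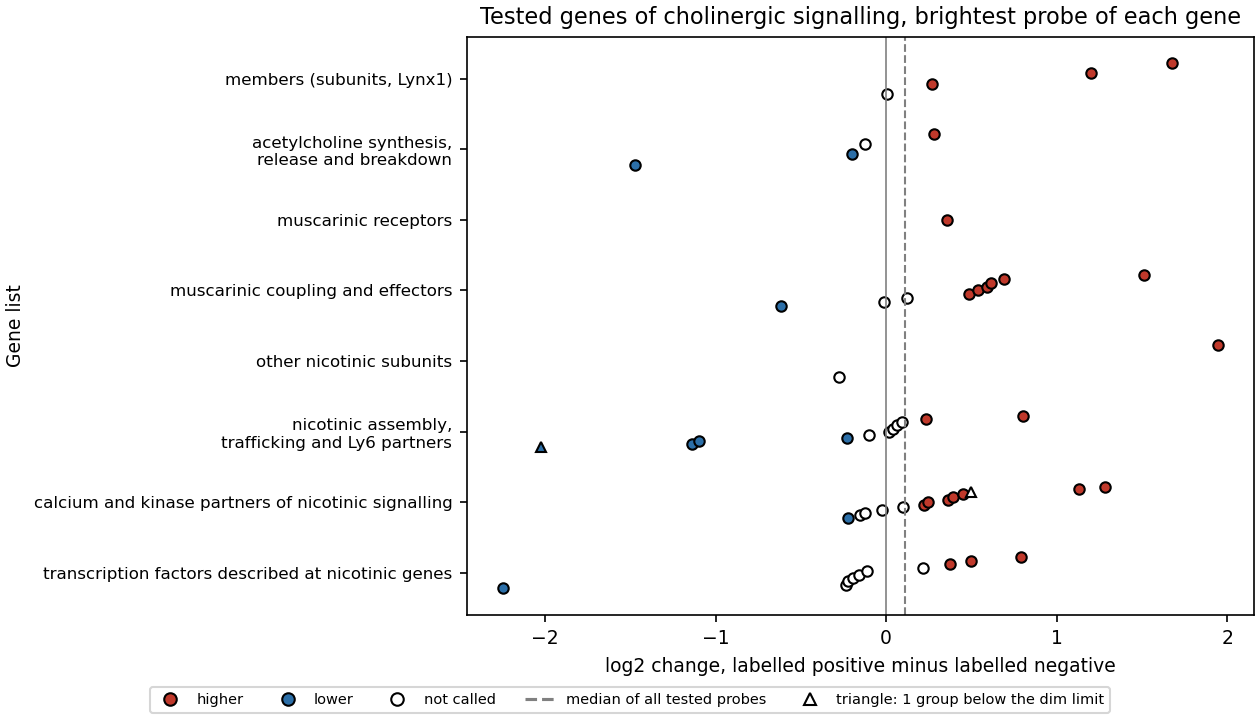
Log2 change of each tested gene (brightest probe) by list, with genes called higher in red, called lower in blue and not called in white; triangles have 1 group below the dim limit, and the dashed line is the median of all tested probes, 0.11. Chrna5 and Chrna3 lie at the right end of the member list, and most lists hold genes on both sides of 0; after normalization between arrays Lynx1 falls to 0 and some small rises are lost.

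Markers of other cells also differed between the groups. Their counts of calls stand beside the shares of all tested probes, 40.6% called higher and 23.6% lower. Sums given here are of linear intensities, so the brightest genes of a list weigh most in them. Among markers of Schwann cells and satellite glia 6 were tested, of which 4 fell (5 after cyclic loess) and 0 rose in the libraries labelled positive. The list had a summed intensity of 113 to 124 against 225 to 240, most of it from Prx (113 and 101 against 191 and 207). Mbp had 1.56 and 1.54 against 13.4 and 13.4. All 3 tested astrocyte markers fell (123 to 136 against 241 to 242 in sum), with Slc1a2 dim in both groups. Their changes were unlike in size. Gfap had a log2 change of -5.42, and Aqp4 had 0.344 and 0.603 against 48.4 and 51.7. Slc1a3, which gave most of the sum in both groups, fell little (log2 change -0.204, adjusted p = 0.0414, limma, Benjamini-Hochberg). The oligodendrocyte list, summed at 197 to 201 against 321 to 330, held Mog (0.985 and 1.01 against 42.0 and 43.8) and Mobp as the 2 of 4 tested that fell (3 after either normalization). Opalin (log2 change 0.129, adjusted p = 0.132) and Cldn11 (-0.0747, adjusted p = 0.4) were bright and not called (limma, Benjamini-Hochberg). Cldn11, which gave most of the sum in both groups, was called lower after either normalization. Mag, Olig2 and Ermn were dim in both groups. Of 7 tested endothelial and mural markers 6 fell (26.6 to 27.3 against 79.9 to 84.0 in sum), Vwf and Pecam1 among them. Kdr and Acta2 were dim. Among 7 tested markers of blood and immune cells 2 rose (1 after either normalization) and 4 fell (95.7 to 99.7 against 173 to 182 in sum). C1qa, Alas2, Cd74 and Csf1r fell. Csf1r gave the largest part of the sum in both groups (mean 50.2 against 115). Cd68 and Ptprc rose (log2 changes 0.433 and 0.352), and Cd68 kept its call after either normalization. Fibroblast and meningeal markers were higher in sum (223 to 227 against 131 to 139), and 3 of 6 rose and 2 fell. Moxd1 (19.5 and 19.0 against 2.56 and 2.79) and Upk1b (24.9 and 27.1 against 4.42 and 3.93) rose. So did Ogn, the brightest of the list (124 and 111 against 53.4 and 56.9). Dcn (7.75 and 9.22 against 16.6 and 16.5) and Col1a1 (19.2 and 20.7 against 22.7 and 24.4) fell. Col1a2 (31.6 and 36.3 against 31.2 and 34.4) was not called.

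Of 6 tested neuron markers 4 rose and 1 fell (40.6% and 23.6% of all tested probes), and 2 rose and 2 fell after either normalization. The summed intensity of the neuron markers was 727 to 738 in the libraries labelled positive and 697 to 705 in those labelled negative. Most of it came from Thy1 (332 and 353 against 323 and 328) and Uchl1 (202 and 190 against 165 and 169). The sum is thus no measure of neuron content. Nefh, the heavy neurofilament subunit, had 3.69 and 4.05 against 1.37 and 1.15, and Prph, peripherin, 54.2 and 55.1 against 109 and 112. Snap25 was dim in all 4 libraries. The libraries thus differed in markers of non-neuronal cells as well as in Chrna3 and Chrna5. In pooled samples fewer cells of a type and less RNA per cell cannot be told apart. The part of these other cells in the changes of the subunit genes was not tested.

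**Figure D5:**
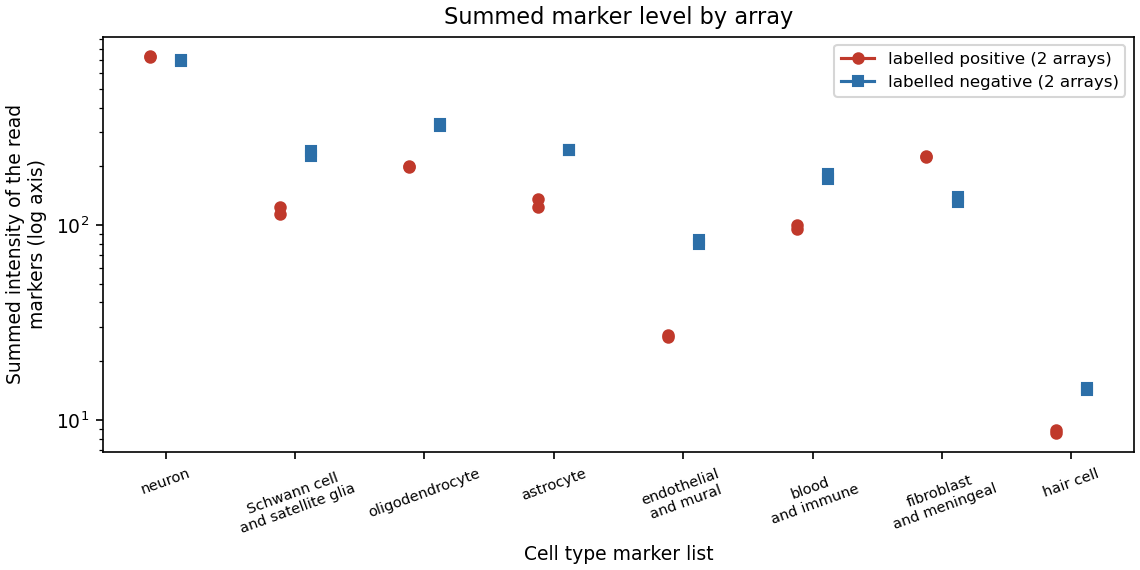
Summed intensity of the markers read for each cell type list on a log axis, with the 2 arrays of each group joined by a line. The neuron list lies at 727 to 738 against 697 to 705, glial and endothelial lists are lower in the libraries labelled positive, and the fibroblast and meningeal list is higher there. In the fibroblast and meningeal list 3 of 6 tested markers rose and 2 fell. Sums are of linear intensities, so the brightest genes of a list weigh most in them.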

How the data were processed

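Values are the authors' deposited probe intensities on a linear scale. No details of scanning, background correction or normalization are given in the sources used here. Array medians near 0.99 show a common scale. The file's missing-value code was read as missing (10 to 39 per array), no member probe being among them. Values that were missing or lay below the 1st percentile of an array's positive values were set to that percentile before log2.

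Of 35126 probes, 16677 had 1 gene symbol in the platform annotation, updated by gene ID where it matched (16649). Late names were read 5 rows later. The names of 2010 probes between the parts, among them a probe of Lynx1 and a probe of Chrnb4, were left out. Probes with a mean log2 below the 40th percentile were not tested, and a group below it is given by level. The brightest probe represents a gene, and in a list also gives its summed level.

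The test of all 21070 remaining probes used limma 3.58.1 under R 4.3.3 (lmFit, eBayes with trend, two-sided; Benjamini-Hochberg; threshold 0.05), checked on simulated data. Means and SDs are linear, log2 changes positive minus negative. The material was pooled, but whether the arrays of a group came from separate pools or animals is not stated, so p-values measure only the spread between these arrays, which may be technical. Named genes were all members, the 3 genes of each cholinergic list and the 2 of each marker list with the smallest p (all tested ones of the muscarinic and other nicotinic lists), the 3 most alike genes of each called member, and Calb2. Dim genes, Sp1, Ly6h, Otof, Slc1a2, Slc1a3, Opalin, Cldn11, Prx, Thy1 and Uchl1 were named besides. So were the other tested fibroblast and meningeal genes and Csf1r, Cd74, Cd68 and Ptprc. Members and lists were chosen with earlier results of these data known. Alternatives were 2 normalizations, filters, floors, variance models, the replicate block, left-out arrays and readings of names. Figures were drawn with matplotlib 3.10.9.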

Additional observations from a re-analysis of the deposited data

Results flagged for a closer look

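A second Lynx1 probe lies in the middle part of the array, between the parts whose names could be read, and was left out of the comparison. It carried signal above the dim limit under either reading of its name. At the value 5 table rows later it had 7.62 and 7.17 in the libraries labelled positive and 6.42 and 6.08 in those labelled negative (mean 7.40 against 6.25; log2 change 0.24). At its own row it had 0.324 and 0.423 against 3.93 and 4.03 (mean 3.98 in the libraries labelled negative, and below the limit in the others). The 2 readings differ in direction, and the early Lynx1 probe had a log2 change of 0.27. Which of them holds for this probe was not tested. A left-out Chrnb4 probe of the same part was below the limit on all 4 arrays under both readings.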

How the results depend on the processing

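The number of probes called stayed within 1.5 times of 13530 in all settings but 1: with each probe tested on its own spread 7082 were called, and 17 of 50 cholinergic genes in place of 30. That setting left Lynx1 at 0.2715 without a call (adjusted p = 0.0524), and Chrna3 and Chrna5 called. Of all calls 63.3% were higher; quantile normalization made this 53.5% and cyclic loess 49.6%, with the overall median change (log2) going from 0.11 to 0.0142 and -0.0146. Lynx1 then stood at -0.0114 and -0.00620; Dop1b and Cox14 turned to -0.0261 and -0.0207 with quantile normalization. With late names not read, which leaves fewer genes, 15 cholinergic genes were called, and Chrna5 was not tested; nor was it with late names at their own row. At their own row Slc44a1 was at 1.51, Chrm3 -0.516, Chrnb1 -0.724, Chrna6 0.792, Rapsn 0.326, Sox10 0.345, Vwf 0.0844, Aldh1l2 -1.26 and Calb2 -1.08, and 4 member genes were called, of which Chrna4 (0.82) and Chrna9 (-0.22) had been too dim to test and the others were Chrna3 and Lynx1. With any single array left out there were 12382 to 12916 calls, 3 member genes each time, 1.19 to 1.22 for Chrna3, 1.66 to 1.70 for Chrna5 and 0.242 to 0.301 for Lynx1; the lone array is assumed to vary like the other group. The replicate block gave 13711 calls and the same 3 member genes; the deviations of arrays that share a number had r = 0.000556 across tested probes, which gives no pairing. Of 737 values of 43 other genes named by the rule above over 18 settings, 697 kept their side of the threshold without a turn of sign in a called change. Among the rest, 25 lost a call, 4 gained one and 11 turned sign with a call in either setting. The cause of these changes was not tested beyond what each setting's construction shows.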
